A study of Mus musculus with 5 samples.

Results

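The 9 genes described here, F8, Vwf, F3, Thbd, Procr, Tfpi, Plat, Plau and Plaur, encode proteins with which endothelial cells start, hold back or dissolve a clot. Every probe that carries 1 of these gene names on the array was read, which gave 16 probes of 56605, for 9 of 37074 gene names. Expression was measured on 5 single-colour Agilent 60-mer mouse arrays, with 1 array for each condition and no replicate.

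The arrays held liver sinusoidal endothelial cells (LSEC) of C57BL/6 mice, tumor endothelial cells (TEC) from tumors of the hepatoma lines HAK-1B, Hepa1-6 and KYN-2, also labelled C57BL/6, and cultured Hepa1-6 cells, labelled C57L. The labels give no transgene, drug or age for any of them. Hepa1-6 is a mouse hepatoma line, whereas the other 2 lines are of human origin. The methods describe female C57BL/6 or nude mice as hosts, give their age at purchase and do not tie a strain to an array. Their paragraphs on the arrays name Huh-7 where the label has HAK-1B. TECs were collected from digested tumors as CD31-positive cells on magnetic beads. Each condition was a single sample. The methods state a number of mice per group for the animal experiments in general and do not tie it to the arrays.

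Clotting starts when tissue factor, the product of F3, binds factor VIIa on a cell surface. Factor VIII, the product of F8, then speeds the activation of factor X as a cofactor of factor IXa. Thrombomodulin (Thbd) and the endothelial protein C receptor (Procr) turn thrombin toward the activation of protein C, and tissue factor pathway inhibitor (Tfpi) blocks factor Xa and the tissue factor complex. Tissue plasminogen activator (Plat) and urokinase (Plau) make plasmin, which dissolves fibrin, and the urokinase receptor (Plaur) holds urokinase at the cell surface. Within the liver, sinusoidal endothelial cells are known as the main source of factor VIII.

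The results turn most on F8 and Plat, the genes whose leading probes passed a rule of size, explained further on, in all 3 TECs. The probes that measured them are shown as the array's designed 60-mers, 5′ to 3′, with the second probe of Plau, which also crosses a splice site. The F8 probe lies at chrX:72455821-72456709 on the minus strand of mm9 and spans 889 genomic bases, so it joins separate exons. The Plat probe lies at chr8:23892531-23892590 on the plus strand of mm9. The Plau probe spans 367 bases on the plus strand of chromosome 14 and also joins exons.
F8: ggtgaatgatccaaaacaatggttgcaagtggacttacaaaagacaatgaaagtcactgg
Plat: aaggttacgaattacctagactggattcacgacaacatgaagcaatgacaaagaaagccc
Plau: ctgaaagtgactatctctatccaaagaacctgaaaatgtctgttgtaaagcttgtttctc

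The array of Hepa1-6 TEC stood apart in its background flags. On it 78.1% of probes were well above background, against 54.1% for LSEC, 57.6% and 54.7% for the TECs of HAK-1B and KYN-2, and 44.6% for the cultured cells. Its lowest log2 signal well above background was 2.83, against 4.28 to 5.96 on the other 4 arrays.

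Before the genes themselves, the labelled cell types were set against their markers. All 12 pan-endothelial markers were well above background on all 4 endothelial arrays, as were all 9 LSEC markers, among them Stab2 and Clec4g. On the array of cultured Hepa1-6 cells 3 of the 12 pan-endothelial markers were well above background. In the TECs of HAK-1B, Hepa1-6 and KYN-2 the median log2 ratio of these markers to LSEC was -2.85, -2.58 and -1.63. Since each endothelial array was read from a mixture of cells, fewer cells of a type and less RNA per cell cannot be told apart there. All 9 macrophage markers were also well above background on the 4 endothelial arrays, with a summed signal of 720052 on the LSEC array. The 12 pan-endothelial markers summed to 491871 there, and to 72347, 72038 and 139511 in the TECs of HAK-1B, Hepa1-6 and KYN-2. In the same TECs the macrophage markers summed to 389679, 256224 and 258965, above the pan-endothelial sum on each array. The lists differ in genes and probes, so these sums do not give shares of cells.

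Values are given as log2 of the normalized signal, in the order LSEC, HAK-1B TEC, Hepa1-6 TEC, KYN-2 TEC and cultured Hepa1-6 cells. Spots of the same probe repeated within an array varied by a median of 2.53% to 2.93%, which covers the measurement on that array and not the spread between animals. All 9 leading probes, each the probe of highest mean signal of its gene, were well above background on the 4 endothelial arrays. In cultured Hepa1-6 cells the leading probes of Procr, F3, Plat and Plaur were well above background, and those of the other 5 genes were not. Differences from a value not well above background are given as at least N-fold, with the array's lowest signal that was well above background as the floor. No array had a saturated spot. The 3 comparisons of a TEC with LSEC share 1 LSEC array. The LSEC array, the 3 TEC arrays and the cancer cell array lay on 3 slides with 3 scan days, so group and slide cannot be told apart.

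**Figure D1:**
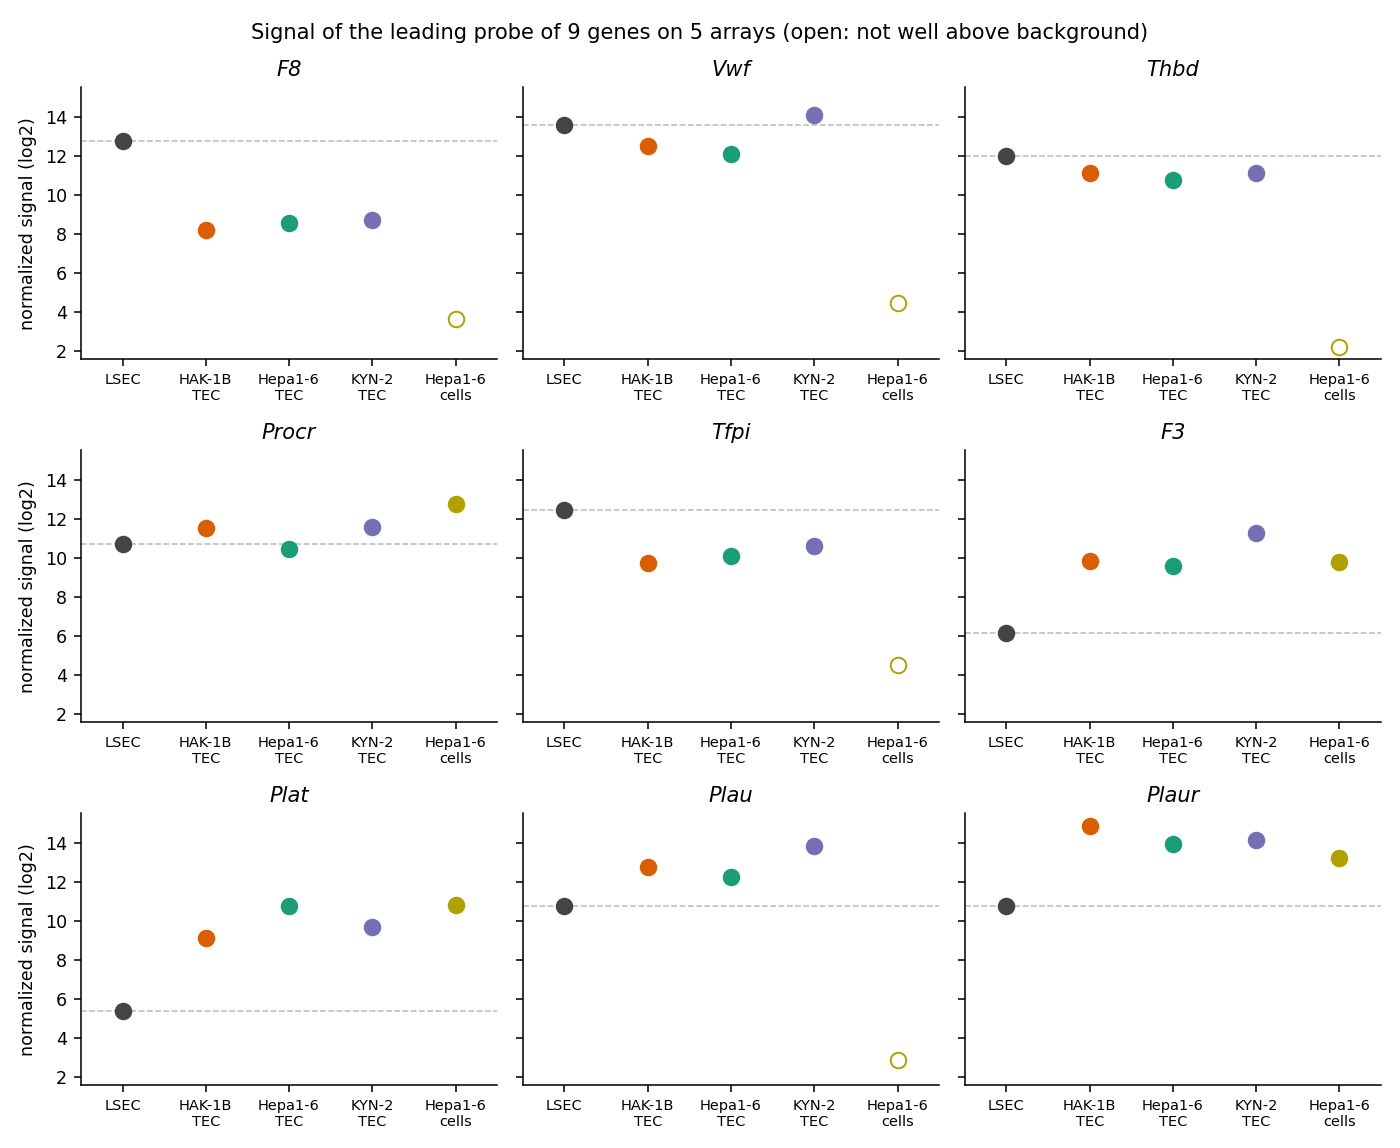
Normalized signal (log2, vertical axis) of the leading probe of each gene on the 5 arrays (horizontal axis), with 1 point per array and no error bar because each condition had 1 array. Open points were not well above background and the dashed line marks LSEC. F8, Thbd and Tfpi lie below the line in all 3 TECs, and F3, Plat, Plau and Plaur lie above it.

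F8 was lower in all 3 TECs than in LSEC, by a similar amount in each. Its log2 signal was 12.78 in LSEC, 8.18 in HAK-1B TEC, 8.54 in Hepa1-6 TEC, 8.73 in KYN-2 TEC and 3.62 in cultured Hepa1-6 cells, where it was not well above background. The 3 TECs lay within 1.46-fold of each other and far below LSEC. The signal was 24.2-fold lower in HAK-1B TEC, 18.8-fold lower in Hepa1-6 TEC and 16.6-fold lower in KYN-2 TEC. The mean log2 ratio was -4.29 ± 0.28 (SD, n = 3 TEC arrays). LSEC lay at least 113-fold above the cultured cells, and Hepa1-6 TEC at least 5.99-fold above them.

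Vwf encodes von Willebrand factor, the large carrier of factor VIII that tethers platelets to damaged vessels. The log2 signal of Vwf was 13.59, 12.53, 12.08, 14.11 and 4.45, the last not well above background. KYN-2 TEC was the highest array and Hepa1-6 TEC the lowest of the endothelial arrays, so the TECs stood on both sides of LSEC. Vwf was 2.08-fold lower in HAK-1B TEC, 2.85-fold lower in Hepa1-6 TEC and 1.44-fold higher in KYN-2 TEC. The mean log2 ratio was -0.68 ± 1.07 (SD, n = 3). The TECs spanned 4.10-fold, the widest range of the 9 leading probes. LSEC exceeded the cultured cells by at least 197-fold.

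The leading Vwf probe lies at chr6:125636551-125636610 of mm9 and is assigned to NM_011708 by the array's design, which carries 2 other probes under this name. The probe of ENSMUST00000112253, at chr6:125542106-125542165, read 7.02, 6.41, 7.29, 8.47 and 5.08, with log2 ratios of -0.61, 0.28 and 1.45 to LSEC. The probe of ENSMUST00000139678, at chr6:125586583-125586642, read 7.39, 5.98, 4.14, 6.58 and 4.45, with ratios of -1.41, -3.25 and -0.81. All 3 probes were lower in HAK-1B TEC than in LSEC, whereas in the TECs of Hepa1-6 and KYN-2 they disagreed in direction. On all 3 probes KYN-2 TEC was the highest of the TECs.

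F3 encodes tissue factor, the cell surface receptor that starts clotting and that resting endothelium is known to hold at a low level. Its log2 signal was 6.13 in LSEC, 9.85 in HAK-1B TEC, 9.61 in Hepa1-6 TEC, 11.30 in KYN-2 TEC and 9.81 in cultured Hepa1-6 cells. LSEC was the lowest of the 5 arrays and KYN-2 TEC the highest. F3 was 13.3-fold higher in HAK-1B TEC, 11.2-fold higher in Hepa1-6 TEC and 36.1-fold higher in KYN-2 TEC, with a mean log2 ratio of 4.13 ± 0.91 (SD, n = 3). The cultured cells lay 12.8-fold above LSEC and 1.14-fold above Hepa1-6 TEC. With normexp background correction the mean ratio was 3.17. The probe lies at chr3:121437717-121437776 of mm9 (NM_010171).

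Thbd encodes thrombomodulin, the endothelial receptor that takes thrombin away from fibrinogen. The log2 signal was 11.99, 11.12, 10.75, 11.13 and 2.21, the last not well above background. The TECs lay within 1.31-fold of each other, the narrowest range of the 9 leading probes, and all below LSEC. Thbd was 1.83-fold lower in HAK-1B TEC, 2.37-fold lower in Hepa1-6 TEC and 1.82-fold lower in KYN-2 TEC, with a mean log2 ratio of -0.99 ± 0.22 (SD, n = 3). LSEC exceeded the cultured cells by at least 65.4-fold and Hepa1-6 TEC exceeded them by at least 27.6-fold. The probe lies at chr2:148230235-148230294 of mm9 (NM_009378).

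Procr, the receptor that presents protein C to thrombomodulin, was highest in the cultured cells. The 5 arrays read 10.73, 11.55, 10.45, 11.60 and 12.79. LSEC lay between the TECs, with HAK-1B TEC and KYN-2 TEC above it and Hepa1-6 TEC below it. Procr was 1.76-fold higher in HAK-1B TEC, 1.22-fold lower in Hepa1-6 TEC and 1.83-fold higher in KYN-2 TEC, with a mean log2 ratio of 0.47 ± 0.65 (SD, n = 3). The cultured Hepa1-6 cells were 4.18-fold above LSEC and 5.08-fold above Hepa1-6 TEC. The probe lies at chr2:155580945-155581004 of mm9 (NM_011171).

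Tfpi, the inhibitor of the tissue factor pathway, was lower in all 3 TECs on each of its 4 probes. The leading probe, at chr2:84273055-84273114 of mm9 (NM_011576), read 12.44, 9.76, 10.09, 10.63 and 4.53, the last not well above background. LSEC was the highest array and the TECs lay within 1.82-fold of each other. Tfpi was 6.42-fold lower in HAK-1B TEC, 5.11-fold lower in Hepa1-6 TEC and 3.52-fold lower in KYN-2 TEC, with a mean log2 ratio of -2.28 ± 0.44 (SD, n = 3). Over the 4 probes the log2 ratio ranged from -3.55 to -1.79 in HAK-1B TEC, from -3.43 to -2.35 in Hepa1-6 TEC and from -2.69 to -1.18 in KYN-2 TEC. The probes did not agree on the cultured cells. On the leading probe LSEC exceeded them by at least 89.4-fold, while on the probe of NM_011576 at chr2:84313860-84313919 the cultured cells read 7.07, well above background, against 9.37 in LSEC and 6.95 in Hepa1-6 TEC.

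**Figure D2:**
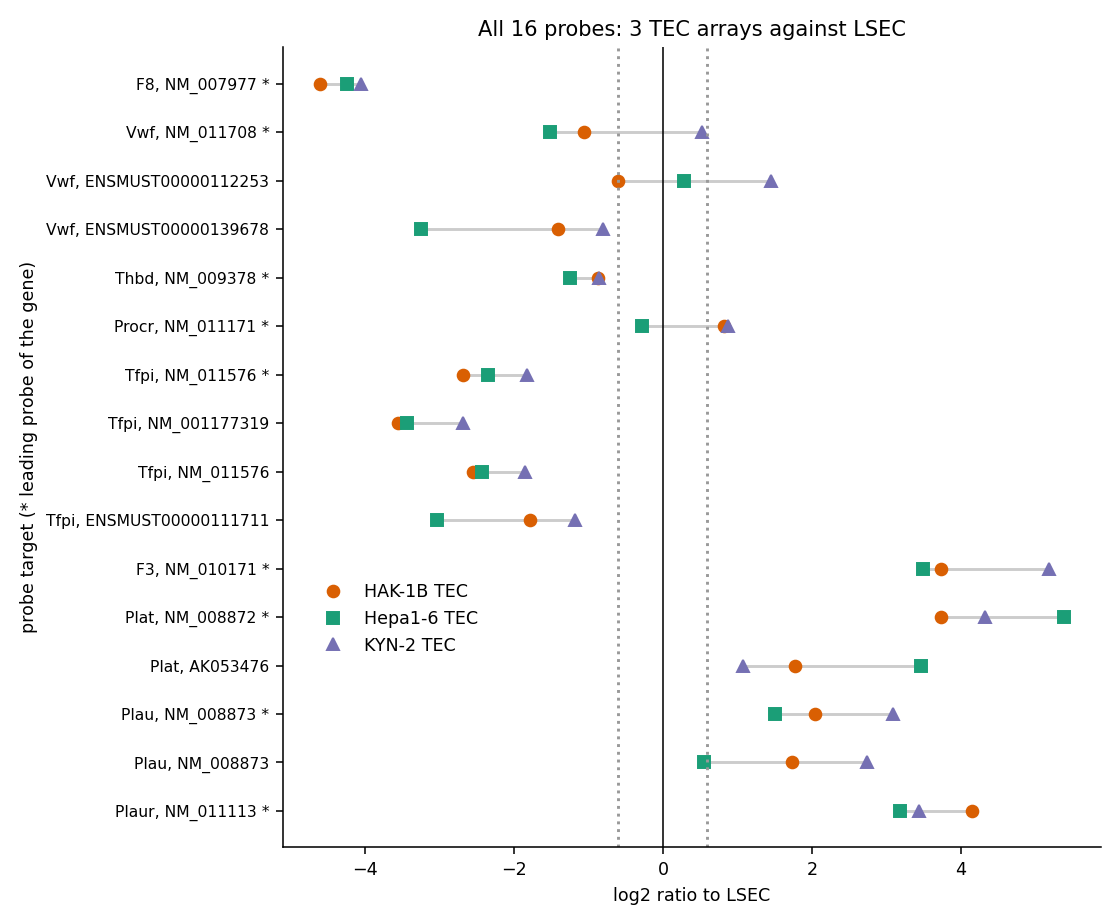
Log2 ratio to LSEC (horizontal axis) of all 16 probes (vertical axis, by target, with * at the leading probe of each gene) on the HAK-1B TEC, Hepa1-6 TEC and KYN-2 TEC arrays, 1 point per array. Grey lines join the 3 TECs and dotted lines mark ratios of 1.5 and 0.66. The 4 Tfpi probes lie left of both dotted lines, and the 3 Vwf probes spread from -3.25 to 1.45.

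Plat encodes tissue plasminogen activator, the activator released by vessel walls that works on fibrin. Its log2 signal was 5.38 in LSEC, 9.11 in HAK-1B TEC, 10.76 in Hepa1-6 TEC, 9.70 in KYN-2 TEC and 10.85 in cultured Hepa1-6 cells. LSEC was the lowest array, and Hepa1-6 TEC and the cultured Hepa1-6 cells were nearly alike, 1.07-fold apart. Plat was 13.3-fold higher in HAK-1B TEC, 41.6-fold higher in Hepa1-6 TEC and 20.0-fold higher in KYN-2 TEC, with a mean log2 ratio of 4.48 ± 0.83 (SD, n = 3). The cultured cells lay 44.3-fold above LSEC. A second, dimmer probe of AK053476, at chr8:23886301-23886360, was not well above background in LSEC, KYN-2 TEC and the cultured cells. It was at least 1.54-fold higher in HAK-1B TEC and at least 4.96-fold higher in Hepa1-6 TEC than in LSEC. Unlike the leading probe, it put Hepa1-6 TEC at least 2.04-fold above the cultured cells. The mean log2 ratio of the leading probe was 3.18 with normexp background correction.

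Plau encodes urokinase, the activator that works at cell surfaces. The 5 arrays read 10.75, 12.80, 12.26, 13.84 and 2.89, the last not well above background. All 3 TECs lay above LSEC, with KYN-2 TEC the highest. Plau was 4.13-fold higher in HAK-1B TEC, 2.84-fold higher in Hepa1-6 TEC and 8.51-fold higher in KYN-2 TEC, with a mean log2 ratio of 2.21 ± 0.81 (SD, n = 3). In contrast to F3, Plat and Plaur, its signal was not detected over background in cultured Hepa1-6 cells, and Hepa1-6 TEC exceeded them by at least 78.6-fold. The exon-joining probe, whose sequence is printed above, read 7.16, 8.90, 7.71, 9.90 and 2.52 and gave the same order of the arrays. On it the TECs of HAK-1B, Hepa1-6 and KYN-2 exceeded LSEC by 3.33-fold, 1.47-fold and 6.68-fold, so Hepa1-6 TEC stayed under the ratio limit of 1.5. The leading probe lies at chr14:21662487-21662546 of mm9 (NM_008873).

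Plaur encodes the urokinase receptor, which is also abundant on myeloid cells. Its log2 signal was 10.75 in LSEC, 14.89 in HAK-1B TEC, 13.93 in Hepa1-6 TEC, 14.18 in KYN-2 TEC and 13.22 in cultured Hepa1-6 cells. LSEC was the lowest array, and the TECs lay within 1.95-fold of each other. Plaur was 17.6-fold higher in HAK-1B TEC, 9.06-fold higher in Hepa1-6 TEC and 10.8-fold higher in KYN-2 TEC, with a mean log2 ratio of 3.58 ± 0.50 (SD, n = 3). The cultured cells lay 5.54-fold above LSEC, and Hepa1-6 TEC lay 1.64-fold above the cultured cells. The probe lies at chr7:25260569-25260628 of mm9 (NM_011113).

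To see how these genes stood among all genes, the ratio limits of the methods were applied to every gene. A gene was counted when its ratio to LSEC was at least 1.5, or at most 0.66, on each of the 3 TEC arrays. F3, Plat, Plau and Plaur were higher by this count, 4 of 9 genes, where 10.4% of 26532 genes were. F8, Thbd and Tfpi were lower, 3 of 9, where 13.8% of all genes were. Vwf and Procr passed in neither direction. The median over the 9 genes of the mean log2 ratio was 0.47, against 0.09 over all genes.

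The full rule of size adds a limit on the Z-score (2 upward, -2 downward) to the ratio limits, where the Z-score is the log2 ratio minus its mean over all probes kept, divided by their SD. The fold that it asks for was 7.25 upward and 6.91 downward in HAK-1B TEC, 11.4 and 9.84 in Hepa1-6 TEC, and 6.79 and 6.77 in KYN-2 TEC. Plat was higher in all 3 TECs by this rule, where 0.418% of all genes were, and F8 was lower in all 3, where 0.731% were. The second probe of Plat passed in none of the 3, with Z-scores of 1.23, 1.97 and 0.77. Vwf, Tfpi, Plat and Plau have a second probe, and the other genes were kept on their only probe. Counted so, the genes that passed upward fell from 3 to 2 in HAK-1B TEC, from 1 to 0 in Hepa1-6 TEC and from 4 to 2 in KYN-2 TEC. The 2 that remained were F3 and Plaur, which have no second probe. In HAK-1B TEC F3, Plat and Plaur passed upward (3 of 9, background 3.11%) and F8 downward (1 of 9, background 3.95%). In Hepa1-6 TEC Plat alone passed upward (background 4.53%) and F8 downward (background 2.05%), and F3 with a Z-score of 1.98 lay just under the limit. In KYN-2 TEC F3, Plat, Plau and Plaur passed upward (4 of 9, background 3.64%) and F8 downward (background 2.88%). The number that passed upward in Hepa1-6 TEC was 3 with normexp background correction and 2 in the deposited table of normalized values.

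The cultured Hepa1-6 cells set the tumor cells of 1 model beside its endothelium. By the rule of size Plat was higher in them than in LSEC (1 of 9, background 2.59%), and F8, Vwf, Thbd, Tfpi and Plau were lower on the measured signals (5 of 9, background 4.83%). The leading probes of these 5 were not well above background in the cultured cells, so each has only an upper bound there. The rule asked for 51.2-fold downward, and against the floor the difference was at least 27.7-fold for Plau, under that limit, and at least 65.4-fold to 197-fold for the other 4. On the dimmer Tfpi probe described above, the cultured cells had a measured level, 4.92-fold below LSEC, which did not pass. F3, Plat, Plaur and Procr were well above background in both the cultured cells and the Hepa1-6 TEC array. The paper reports a purity for the isolated TECs from cell sorting analysis and states that some carry-over of cancer cells could not be avoided. How much of the signal of these 4 genes on the TEC array came from tumor cells was not tested.

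**Figure D3:**
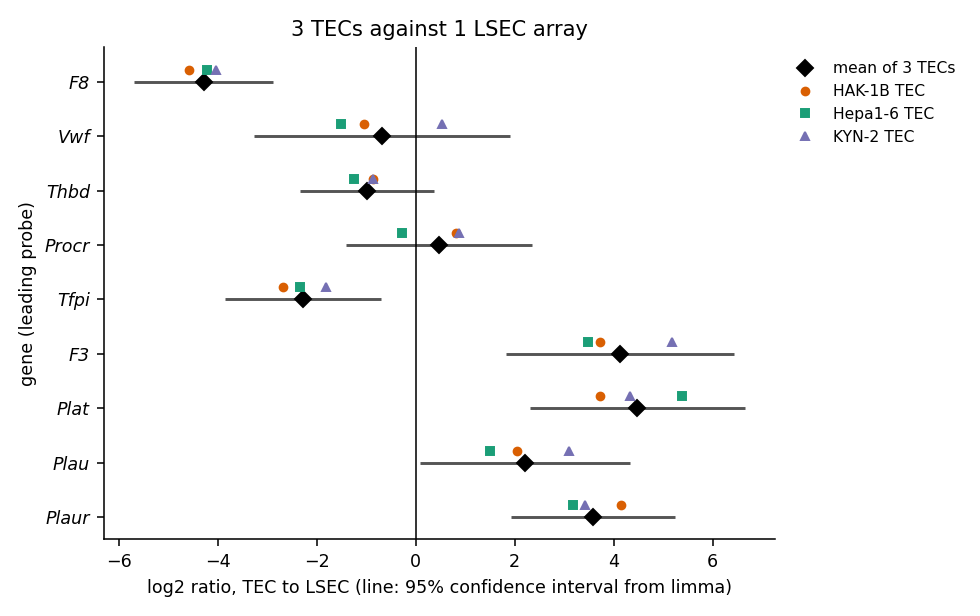
Log2 ratio of TEC to LSEC (horizontal axis) for the leading probe of each gene (vertical axis), with the mean of the 3 TECs as a diamond, its 95% confidence interval from limma as a line and the 3 arrays as coloured points. The intervals of F8 and Tfpi lie below 0, those of F3, Plat, Plau and Plaur above it (Plau and Tfpi not under every alternative), and those of Vwf, Thbd and Procr span it.

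A limma fit set the 3 TECs as 1 group against the 1 LSEC array, which is assumed to vary like the TECs and leaves 2 residual degrees of freedom. After Benjamini-Hochberg adjustment 0 of 42113 probes were called, and 3583 probes (8.51%) had an unadjusted p under 0.05. Of the 16 probes described here 8 were among these, namely those of F8, F3 and Plaur, the leading probes of Plat and Plau, and 3 of the 4 probes of Tfpi. The mean log2 ratio of F8 was -4.29 with a standard error of 0.52 and a 95% interval from -5.70 to -2.89 (limma adjusted p = 0.443). That of Plat was 4.48 with an interval from 2.30 to 6.65 (limma adjusted p = 0.443). Plaur had an interval from 1.93 to 5.24 and F3 one from 1.82 to 6.44, while that of Plau ran from 0.09 to 4.34 and that of Tfpi from -3.86 to -0.71. For Vwf the interval ran from -3.27 to 1.91, for Thbd from -2.35 to 0.36 and for Procr from -1.41 to 2.34, so these 3 intervals held 0. The interval of Plau held 0 with scaling to the 75th percentile (from -0.26) and without each TEC in turn (from -0.42, -0.12 and -0.47 with HAK-1B, Hepa1-6 and KYN-2 left out). That of Tfpi held 0 without HAK-1B TEC (to 0.03) and without Hepa1-6 TEC (to 0.02). The interval of Thbd did not hold 0 with normexp (from -1.84 to -0.20) or without Hepa1-6 TEC (from -1.68 to -0.06), and that of Procr did not without Hepa1-6 TEC (from 0.02 to 1.66). Over the 9 leading probes the limma adjusted p ran from 0.443 to 0.899, and none passed 0.05.

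The order of the arrays differed between the genes, with KYN-2 TEC the highest of the TECs for 7 of the 9. How many of all genes were highest there was not counted. The median log2 ratio of the pan-endothelial markers was also highest in KYN-2 TEC, at -1.63, against -2.85 in HAK-1B TEC and -2.58 in Hepa1-6 TEC. For F8 and Tfpi the arrays ran, from high to low, LSEC, KYN-2 TEC, Hepa1-6 TEC, HAK-1B TEC and cultured cells. The steps between neighbouring TECs were small, at 0.19 and 0.36 on the log2 scale for F8, and cannot be set against a replicate spread. For Thbd, KYN-2 TEC and HAK-1B TEC were 0.01 apart. For Plau and F3 KYN-2 TEC led by 1.04 and 1.45 over the next array, HAK-1B TEC in both cases. For Plaur HAK-1B TEC led by 0.71, and on the leading probe of Plat the cultured Hepa1-6 cells led Hepa1-6 TEC by 0.09.

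Genes with a profile most like each member were looked up over the 5 arrays, among genes with the same background flags, by the distance between log2 profiles centred on their own mean. The nearest to F8 were LOC102637409 at a distance of 0.53, Bhmt at 0.83 and Dnase1l3 at 0.87. Those nearest to Vwf were Lama4 at 0.60, Bcl6b at 0.72 and Plvap at 0.79. Tfpi was nearest to Dennd2a at 0.15, then Clec1a at 0.35 and 6430548M08Rik at 0.50. Thbd was nearest to Jam2 at 0.49, Lyz1 at 0.57 and Rab29 at 0.58. Procr was nearest to ENSMUST00000120862 at 0.26, ENSMUST00000118127 at 0.27 and 1700007L15Rik at 0.28. For F3 they were Gprc5b at 0.68, Tbc1d2 at 0.78 and Emp1 at 0.89, and for Plaur Sdc4 at 0.38, Sh2d5 at 0.67 and Galns at 0.69. Plau was nearest to Cd34 at 0.89, Il7r at 0.91 and Galnt6 at 0.97. For Plat they were S100a6 at 1.08, Fblim1 at 1.15 and Gm3448 at 1.18. F8, Vwf, Thbd, Tfpi and Plau had 3130 candidates with the same flags, and the other 4 genes had 13780. For the former the distance included a value in cultured cells that was not well above background. Within a distance of 1 lay 334 genes for Procr, 0 for Plat and 3 to 41 for each of the others. With 5 arrays such likeness is a description only.

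Promoters of 5 of the 9 genes were found in the RefSeq table for GRCm38.p6, as 6 sequences since Tfpi has 2 starts. The letters TGACTCA, bound by AP-1, were searched on both strands in the 250 bases before each start and were found in F3, Plaur and Procr, 3 of the 6 sequences, against 4.46% of 32851 promoters in the table. The 3 sequences are shown with that of F8, which holds none of these letters, 5′ to 3′ along the gene, with the match in capitals. F3 is at chr3:121723287-121723536 on the plus strand, Plaur at chr7:24462233-24462482 on the plus strand, Procr at chr2:155750967-155751216 on the plus strand and F8 at chrX:75380042-75380291 on the minus strand.
F3: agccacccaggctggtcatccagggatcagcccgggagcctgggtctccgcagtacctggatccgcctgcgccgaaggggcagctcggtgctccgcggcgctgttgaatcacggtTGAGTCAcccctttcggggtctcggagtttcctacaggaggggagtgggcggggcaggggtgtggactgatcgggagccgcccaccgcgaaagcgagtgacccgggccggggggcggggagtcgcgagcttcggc
Plaur: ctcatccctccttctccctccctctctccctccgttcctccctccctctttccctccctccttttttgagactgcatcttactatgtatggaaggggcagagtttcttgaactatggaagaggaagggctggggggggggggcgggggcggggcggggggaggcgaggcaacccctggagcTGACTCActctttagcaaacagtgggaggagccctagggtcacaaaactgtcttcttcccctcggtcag
Procr: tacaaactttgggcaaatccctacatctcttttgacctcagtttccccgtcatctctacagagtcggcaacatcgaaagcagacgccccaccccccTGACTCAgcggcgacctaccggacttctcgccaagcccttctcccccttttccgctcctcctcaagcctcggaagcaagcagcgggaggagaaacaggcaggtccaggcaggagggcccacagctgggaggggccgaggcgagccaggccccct
F8: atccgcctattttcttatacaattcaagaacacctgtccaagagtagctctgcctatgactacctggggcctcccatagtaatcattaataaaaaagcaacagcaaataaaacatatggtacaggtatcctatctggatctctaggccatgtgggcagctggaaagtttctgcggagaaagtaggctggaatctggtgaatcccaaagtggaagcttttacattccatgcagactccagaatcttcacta
The match starts 135 bases before the start of F3, 69 before that of Plaur and 154 before that of Procr. In F3 it is on the reverse strand and shares 2 bases with a match to CACCC, the letters searched for KLF factors. CACCC was found in promoters of F3, Procr and Tfpi and in 52.0% of all promoters, and GCGGGGGCG (EGR1) in Plaur and in 2.57% of all. TATAAA was found in 1 of the Tfpi promoters and in 12.4% of all. ACGTG, the core of the hypoxia response element, was found in none of the 6 sequences and in 16.6% of all promoters. A match is a stretch of letters and does not show that a factor binds there.

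**Figure D4:**
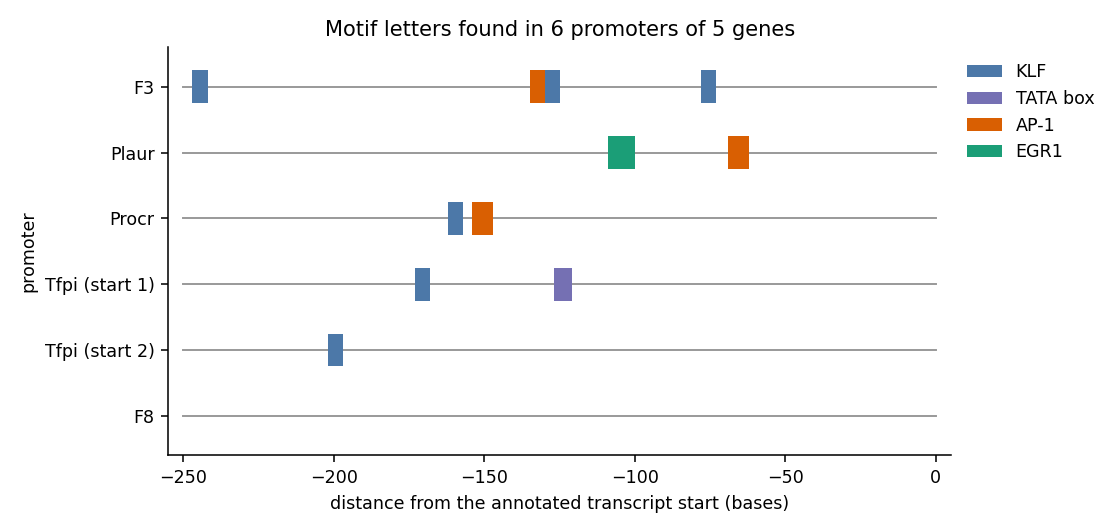
Position of motif letters in the 250 bases before the annotated start (horizontal axis, bases from the start) for 6 promoters of 5 genes (vertical axis), with each block 1 match on either strand. AP-1 letters lie 135, 69 and 154 bases before the starts of F3, Plaur and Procr, and F8 has no match to any motif drawn.

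Transcription factors known to act in endothelium, AP-1 subunits among them, were read on the same arrays. Of 8 factors 0 were higher and 3 were lower by the ratio limits in all 3 TECs (10.4% and 13.8% over all genes), namely Klf2, the flow-responsive factor of quiescent endothelium, Erg, an endothelial identity factor, and Jun, a subunit of AP-1. The median of their mean log2 ratios was -0.82. Jun read 16.68, 15.16, 15.22, 15.32 and 10.77, so the TECs lay within a narrow band below LSEC, with a mean log2 ratio of -1.45 ± 0.08 (SD, n = 3). Klf2 had a mean log2 ratio of -1.58 ± 0.70 and Fos, the brightest of the 8 in TECs, one of -0.84 ± 0.50.

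Of 10 other genes of fibrinolysis, 2 were higher and 0 lower in all 3 TECs by the ratio limits (10.4% and 13.8% over all genes), with a median of 0.43. Both encode serpins that inhibit plasminogen activators, and neither passed the rule of size in all 3. Serpinb2 had a log2 signal of 6.11 in LSEC, 10.36 in HAK-1B TEC, 8.68 in Hepa1-6 TEC, 9.55 in KYN-2 TEC and 10.10 in cultured Hepa1-6 cells. LSEC was the lowest array, and the mean log2 ratio was 3.42 ± 0.84 (SD, n = 3). Serpine2, protease nexin 1, had a mean log2 ratio of 2.54 ± 0.47 and was also lowest in LSEC. It was highest in cultured Hepa1-6 cells, at 12.62, 15.2-fold above LSEC. Anxa2, a binding site of plasminogen and tissue plasminogen activator and the brightest of the list in TECs, had a mean log2 ratio of 0.92 ± 0.42 and did not pass in all 3.

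Of 14 plasma clotting factors, 3 were higher and 1 lower in all 3 TECs (10.4% and 13.8% over all genes), with a median of -0.65. F10, factor X, read 8.33 in LSEC, between 12.45 and 13.45 in the TECs, and 2.59 in cultured Hepa1-6 cells, the last not well above background. The 3 TECs exceeded LSEC by 25.4-fold, 34.7-fold and 17.3-fold, and F10 passed the rule of size in all 3. F13a1, the chain of factor XIII that macrophages and platelets are known to carry, read 10.17, 14.07, 13.70, 15.03 and 4.30 and passed it too, with a mean log2 ratio of 4.09 ± 0.68. F7, factor VII, the partner of tissue factor, had a mean log2 ratio of 3.51 ± 0.85. F12, the lower 1, was dim, at 4.73, 2.63, 2.92 and 3.70 in LSEC and the TECs. Among these arrays it was well above background on that of Hepa1-6 TEC alone, where the floor was lowest. F2, prothrombin, was 21.5-fold lower in HAK-1B TEC, 1.24-fold higher in Hepa1-6 TEC and 4.89-fold lower in KYN-2 TEC.

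Of 12 other anticoagulant genes, 0 were higher and 3 lower in all 3 TECs (10.4% and 13.8% over all genes), with a median of -1.05. Pros1, protein S, the cofactor of activated protein C, read 15.55, 13.01, 12.78, 12.71 and 12.17. The TECs were nearly equal and below LSEC, with a mean log2 ratio of -2.72 ± 0.16. Serpinc1, antithrombin, was at least 30.4-fold lower in HAK-1B TEC, 1.19-fold lower in Hepa1-6 TEC and 12.2-fold lower in KYN-2 TEC. Ptgis, prostacyclin synthase, had a mean log2 ratio of -1.46 ± 1.14 and did not pass in all 3. Proz, protein Z, had a mean log2 ratio of -1.96 ± 0.94, and Nos3, endothelial nitric oxide synthase, one of -1.16 ± 0.53.

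Of 8 genes of the Weibel-Palade body, the organelle that stores von Willebrand factor, and of factor VIII handling, 1 was higher and 1 lower in all 3 TECs (10.4% and 13.8% over all genes). Cd63, a membrane protein of that organelle and of lysosomes, had a mean log2 ratio of 3.16 ± 0.32, and Rab27a, which controls its release, one of -1.80 ± 0.85. The highest array for Cd63 was that of cultured Hepa1-6 cells, at 16.76, against 12.76 in LSEC and 15.72 to 16.29 in the TECs. Lman1, the cargo receptor that carries factors V and VIII out of the endoplasmic reticulum, had a mean log2 ratio of -0.79 ± 0.29 and did not pass in all 3. Selp, P-selectin, was 3.32-fold higher in HAK-1B TEC, 1.23-fold lower in Hepa1-6 TEC and 4.48-fold higher in KYN-2 TEC. Of 4 thrombin receptor genes F2rl3 alone passed on the measured signals, 2.54 in LSEC and 5.21, 4.35 and 5.82 in the TECs. The LSEC value was not well above background, and against that floor the difference was at least 1.45-fold in HAK-1B TEC and at least 2.21-fold in KYN-2 TEC, with no fold to give in Hepa1-6 TEC. F2r, the main thrombin receptor of endothelium, had a mean log2 ratio of -0.86 ± 1.11. The vitamin K cycle genes Ggcx and Vkorc1 did not pass, with mean log2 ratios of -0.84 ± 0.47 and -0.37 ± 0.27.

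**Figure D5:**
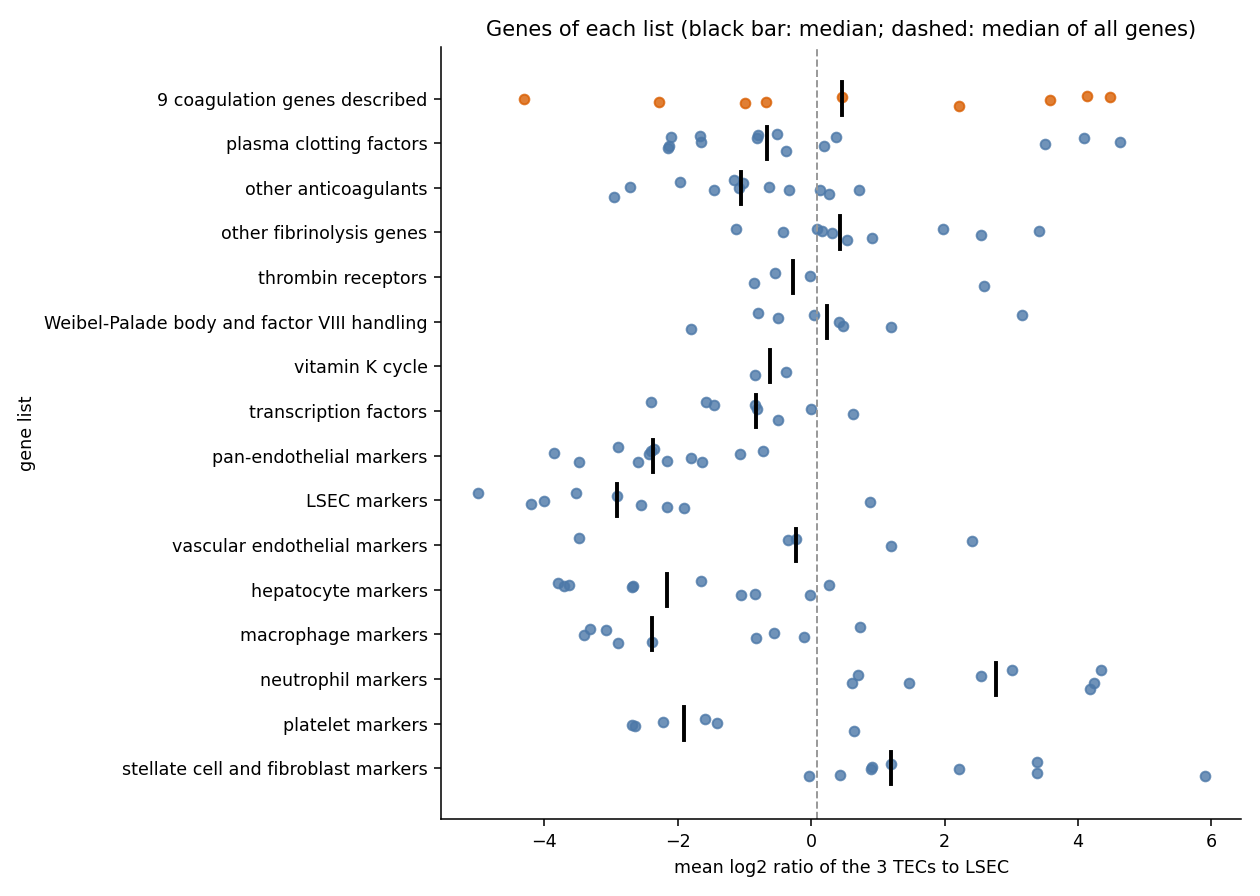
Mean log2 ratio of the 3 TECs to LSEC (horizontal axis) for each gene of the 9 described and of 15 lists (vertical axis), 1 point per gene by its leading probe. Black bars are medians and the dashed line is the median of all genes, 0.09. The pan-endothelial, LSEC and macrophage lists have medians of -2.37, -2.90 and -2.38, and the neutrophil list one of 2.78.

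Markers of the endothelium and of other cells moved between the same arrays, and their part in the results was not tested. Of the 12 pan-endothelial markers, 10 were lower and 0 higher in all 3 TECs, where 13.8% of all genes were lower and 10.4% higher, with Egfl7 the brightest in TECs. Of the 9 LSEC markers 8 were lower, with a median of -2.90. The rule of size was passed downward in all 3 TECs (0.731% over all genes) by Clec4g, Oit3 and Dnase1l3 of the LSEC markers, by Tek and Kdr of the pan-endothelial markers and by Ackr1 of the markers of other vessels. The mean log2 ratios of the 9 ran from -5.00 for Dnase1l3 to 0.88 ± 1.05 for Lyve1, which did not pass. Among 5 markers of other vessels Cd34 was higher in all 3 TECs, with a mean log2 ratio of 2.41 ± 0.76, and Ackr1 was lower, with -3.47 ± 0.67.

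The neutrophil list, 8 genes with S100a9 the brightest, had 4 genes higher in all 3 TECs (10.4% over all genes), namely S100a8, S100a9, Camp and Ltf, the last of which was not well above background in LSEC. Its summed signal was 4551 in LSEC and 144269, 30293 and 8399 in the TECs of HAK-1B, Hepa1-6 and KYN-2 and in the first pair of these was carried mostly by S100a8, S100a9 and Retnlg. The genes of the list did not all run the same way. Mpo read 11.17, 11.82 and 12.03 and Elane 9.17, 9.40 and 10.49 in the TECs of HAK-1B, Hepa1-6 and KYN-2, and both were highest in KYN-2 TEC. Ly6g was not well above background in LSEC and in KYN-2 TEC, and its highest array was that of cultured Hepa1-6 cells at 9.74.

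The macrophage list had 5 of 9 genes lower in all 3 TECs (13.8% over all genes), namely Clec4f, Cd5l, Marco, Cd163 and Mrc1, and its summed signal was 389679, 256224 and 258965 in HAK-1B TEC, Hepa1-6 TEC and KYN-2 TEC, with Csf1r the brightest. The other 4 genes did not pass in all 3. Cd68 had log2 ratios of 0.85, 0.12 and 1.25, while those of C1qa were 0.83, -0.79 and -0.35 and those of Adgre1 0.04, -1.51 and -0.99. Csf1r had a ratio of 0.24 in HAK-1B TEC and lay below LSEC in the other two. The stellate cell and fibroblast list had 4 of 9 genes higher (10.4% over all genes), Col1a1, Col1a2, Col3a1 and Pdgfrb, with a summed signal of 12862 in LSEC and 23969, 47513 and 35887 in the TECs, and Acta2 the brightest by its mean log2 signal. In cultured Hepa1-6 cells the list summed to 125510, the highest of the 5 arrays, with Dcn at 16.74. Dcn was also the brightest of the list in Hepa1-6 TEC, at 14.72. Col1a1 was not well above background in LSEC and was at least 26.7-fold, 71.1-fold and 112-fold higher in the 3 TECs. The platelet list had 4 of 6 genes lower (13.8% over all genes), Ppbp, Gp1ba, Gp9 and Gp6, and Pf4 was its brightest gene. The summed platelet signal was 56804 in LSEC and 39348, 58728 and 129245 in the TECs, and Pf4 made up most of it. The other 5 genes were each highest in LSEC, with log2 ratios in KYN-2 TEC from -1.64 for Ppbp to -0.28 for Itga2b.

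The hepatocyte list had 3 of 10 genes lower in all 3 TECs (13.8% over all genes), Pck1, Serpina1c and Cyp2e1. In the TECs of HAK-1B, Hepa1-6 and KYN-2 its median log2 ratio was -4.30, -0.36 and -2.32, and its summed signal was 2541, 61919 and 9827, against 39381 in LSEC. Apoa2 was its brightest gene in TECs by the mean log2 signal, while Alb, at 15.54, made up most of the sum in Hepa1-6 TEC. Alb also read 13.94 in cultured Hepa1-6 cells, where the list summed to 24613.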

How the data were processed

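RNA was labelled with Cy3 and hybridized to an Agilent 60-mer mouse array, and scans were read with Feature Extraction, 9.5.1.1 in the methods and 10.7.1.1 in the file headers. The deposited spot intensity is linear, had been background-subtracted by the scanner software and is not normalized between arrays, and comes with flags of 0 or 1 for each spot. The authors also deposited a table of quantile-normalized intensity values. The authors' raw spot and background intensity served 1 alternative.

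Control spots were left out, spots of 1 probe were averaged and the 5 arrays were quantile normalized together on the log2 scale. A probe had to be present on 1 or more arrays of its comparison, by the methods' criteria rebuilt from the spot flags (positive and significant, well above background, not saturated and no outlier), and 4460 lincRNA probes were removed. Samples were grouped by their labels. The limits of the rule of size are those of the methods, which normalized each pair of arrays by itself, whereas the 5 were normalized jointly here, and a gene was counted by its probe of highest mean signal. A single array against another allows no test. With the 3 TECs as 1 group, limma 3.58.1 in R 4.3.3 was fitted over all kept probes with Benjamini-Hochberg adjustment. The fit was run on simulated data beforehand, with changes larger than the mean log2 ratios of the genes described. That run therefore does not show what the fit could detect here. Other steps used Python 3.11.15, numpy 2.4.6 and pandas 2.3.3. At least N-fold bounds set the signal of the brighter array against the dim probe's own signal or, if higher, the dim array's lowest signal that was well above background.

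The 9 genes and the 15 lists were chosen with earlier results of these data known, and 1 gene of the fibrinolysis list is not reported here. Genes named were taken from each list's brightest gene in TECs, those past the rule of size in all 3 TECs and up to 3 others of largest ratio, and the 3 nearest profiles of each member. F12, Nos3, Proc, Hs3st1, Marco, Mrc1, Gp6, Ly6g, Retnlg, Cd68, C1qa, Adgre1, Mpo, Elane, Itga2b, Lyve1, Alb and Dcn were chosen after their values were seen. Probe positions are those of the array's design on mm9, with no exon or UTR annotation used here. All 12 RefSeq accessions of the probes were found under the same symbol in the RefSeq table. Alternatives were scaling to the 75th percentile, normexp with an offset of 50, the deposited table, normalization by pair, a gene's second probe where it had 1, stricter flags and each TEC left out.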

Additional observations from a re-analysis of the deposited data

Results flagged for a closer look

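The Vwf probe of ENSMUST00000112253 stood on opposite sides of LSEC in different TECs. Its log2 ratio to LSEC was 1.45 in KYN-2 TEC and -0.61 in HAK-1B TEC, beyond the ratio limits of 1.5 and 0.66. With 1 array for each tumor the difference was not tested. The leading Vwf probe had ratios of 0.53 and -1.06 in the same arrays.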

How the results depend on the processing

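The 4 genes higher and the 3 lower by the ratio limits in all 3 TECs numbered 3 to 5 and 3 to 4 over the alternatives. Leaving out each TEC in turn gave 4 to 5 higher (5 with Procr, without Hepa1-6 TEC) and 3 to 4 lower (4 with Vwf, without KYN-2 TEC). Counts by the rule of size moved more. Lower genes in HAK-1B TEC went from 1 to 2 with normexp, with the second probe and with probes present on both arrays. In Hepa1-6 TEC higher genes went from 1 to 3 with normexp, 2 in the deposited table, 0 with the second probe and 3 with probes present on both arrays, and lower genes from 1 to 2 with normexp and with the second probe. With the second probe, where a gene had 1, higher genes went from 3 to 2 in HAK-1B TEC and from 4 to 2 in KYN-2 TEC. In cultured Hepa1-6 cells higher genes went from 1 to 0 and lower genes from 5 to 3. Asking for probes present on both arrays left 0 lower in the cultured cells, because no leading probe of the 5 was well above background there. Apart from that count, the cause was not tested.

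The mean log2 ratio of Tfpi was -3.22 on its second probe and that of Plat 2.10, and normexp gave 3.17 for F3 and 3.18 for Plat. None of the values changed from a called direction to its opposite. limma called 0 probes under each of the 7 alternatives run for it (75th percentile, normexp, deposited table, probes present on all 4 endothelial arrays and each TEC left out), with 2012 to 6238 at an unadjusted p under 0.05, and its smallest adjusted p was 0.443 as reported, 0.0576 with normexp and 0.982 without KYN-2 TEC. Scaling to the 75th percentile moved the median mean log2 ratio of all genes from 0.09 to 0.26. No paired analysis was possible because no condition had a second array. The single array for each condition and the dim LSEC signals of F3 and Plat limit the precision of their folds.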
